A study of Mus musculus with 10 samples.

Results

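Transcripts of 4 peptidylarginine deiminases (Padi1, Padi2, Padi3 and Padi4), 4 transglutaminases (Tgm1, Tgm2, Tgm3 and Tgm5) and trichohyalin (Tchh) were followed in mouse back skin over 48 h after cyclophosphamide, an alkylating chemotherapy drug. The 9 genes were picked by symbol, out of 24331 named genes in the deposited expression table, and each was found there as 1 row. All 9 passed the filter on low values that left 13625 genes for testing, Padi2 only through its 0h libraries (at least 1 FPKM in at least 2 libraries; FPKM is fragments mapped to a gene, scaled by its transcript length and by the library's mapped fragments). The skin came from wild type C57BL/6 males of 7 to 8 weeks whose hair growth phase (anagen) had been set off by wax depilation, and the groups differed in time: 0h was taken before the drug, and 6h, 12h, 24h and 48h are hours since an intraperitoneal injection of 150 mg/kg on day 9 of that regrowth. Each time had 2 libraries, 10 in all, made from total RNA of full back skin. No group received the vehicle alone, so time since the drug and time since depilation passed together and cannot be told apart. It is not said in the labels whether different mice gave the paired libraries of a time; p-values therefore rest on library-to-library spread that could be technical.

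Peptidylarginine deiminases turn arginine residues of proteins into citrulline, which takes away their positive charge. Transglutaminases join glutamine to lysine residues and so weld proteins into insoluble networks. Trichohyalin, a large arginine- and glutamine-rich protein stored as granules in the inner root sheath and the medulla of the hair, is a known substrate of both kinds of enzyme: citrullination loosens it from the granules, and cross-linking then fixes it to the keratin filaments that harden the sheath. In humans, PADI3, TGM3 and TCHH are the genes known for uncombable hair syndrome, a disorder of hair shape.

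In the GENCODE M21 annotation of the mouse genome (GRCm38, the same assembly as the mm10 build in the submitters' processing notes) the deiminase genes lay together on chromosome 4. Padi4 was at chr4:140745865-140774236 on the minus strand, Padi3 at chr4:140785365-140810648 on the minus strand, Padi1 at chr4:140812983-140845778 on the minus strand and Padi2 at chr4:140906344-140952586 on the plus strand. Between the annotated start of Padi3 and the end of the neighbouring Padi1 there were 2.3 kb. Tgm5 was at chr2:121046111-121085841 (minus), Tgm3 at chr2:130012349-130050399 (plus), Tgm2 at chr2:158116402-158146436 (minus), Tgm1 at chr14:55700009-55713926 (minus) and Tchh at chr3:93442330-93449077 (plus). Tgm2 overlapped Rprd1b, a protein-coding gene on the other strand, and Padi1, Padi2, Tgm1, Tgm3, Tgm5 and Tchh each overlapped an opposite-strand gene model or microRNA gene. No source used here says whether counting used strand, so reads of these overlaps cannot be told apart.

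RefSeq's promoter table (GRCm38.p6) held 8 of the 9 genes. The 250 bases before the start are shown for the 3 genes on which the results turn: Tchh, which fell at 48h, Padi3, which fell with it, and Padi1, which was higher at 12h, 24h and 48h and is the next gene to Padi3. Each is given 5′ to 3′ on the strand of the gene.
Tchh, chr3:93442080-93442329, plus strand: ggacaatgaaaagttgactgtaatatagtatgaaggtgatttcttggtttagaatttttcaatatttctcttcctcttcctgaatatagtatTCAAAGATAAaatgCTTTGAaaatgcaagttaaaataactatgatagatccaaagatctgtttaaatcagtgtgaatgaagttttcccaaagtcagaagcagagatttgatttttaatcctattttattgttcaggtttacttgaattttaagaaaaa
Padi3, chr4:140810649-140810898, minus strand: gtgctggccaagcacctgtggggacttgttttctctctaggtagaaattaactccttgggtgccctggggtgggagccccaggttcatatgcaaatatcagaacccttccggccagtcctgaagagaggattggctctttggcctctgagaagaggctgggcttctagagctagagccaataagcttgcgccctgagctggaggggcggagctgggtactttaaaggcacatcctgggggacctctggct
Padi1, chr4:140845779-140846028, minus strand: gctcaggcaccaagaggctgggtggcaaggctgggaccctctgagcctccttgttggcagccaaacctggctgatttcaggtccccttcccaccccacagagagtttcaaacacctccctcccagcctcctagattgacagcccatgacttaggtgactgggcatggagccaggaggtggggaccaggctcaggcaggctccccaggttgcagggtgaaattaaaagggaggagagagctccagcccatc

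Capitals mark matches, on either strand, to 5 short motifs chosen after the expression values were known: TATAAA, the GATA-type GATAA, the LEF/TCF-type CTTTGA and CTTTGT, and the AP-1-type TGANTCA. The Tchh window held 1 GATAA, 153 bases before the start, and 2 CTTTGA, at 158 bases (read on the opposite strand, as TCAAAG, and sharing bases with GATAA) and at 144 bases. Among 32851 mouse promoter windows of the same length, GATAA was present in 22.6%, CTTTGA in 13.8%, CTTTGT in 16.5%, TATAAA in 12.4% and TGANTCA in 6.7%. No match to the 5 motifs was found in the windows of Padi1, Padi3, Padi2 and Tgm5. The Padi4 window held TATAAA and TGACTCA, that of Tgm3 held TATAAA and CTTTGT, and, of the 2 start windows of Tgm1, the first held CTTTGA and the second none of the 5. The Tchh window was poor in G and C (27.6%), against 56.0% for Padi3 and 60.0% for Padi1.

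The 10 libraries correlated at r = 0.984 to 0.989 within a time and at 0.966 to 0.987 between times (Pearson, log2(FPKM + 1), across the tested genes of each pair of libraries). Their FPKM sums ran from 862653 to 978550, and the files give no read totals. The tissue label was met by its markers: 13 of 13 listed inner root sheath and companion layer keratins and 14 of 14 hair shaft markers in the table had at least 1 FPKM in some library, as had 13 of 13 markers of interfollicular epidermis. Skeletal muscle markers were also present and lower after the drug: their summed level was 5891 to 6643 FPKM at 48h, against 12351 to 13812 FPKM at 0h. Since full skin was measured, fewer cells of a type and less RNA per cell cannot be told apart in any result below.

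Before the drug, the 9 genes spanned levels from near the limit of the filter to among the most abundant transcripts of the skin. Tchh led with 2834 ± 194 FPKM at 0h (SD, n = 2, as for all errors of FPKM here), followed by Padi3 with 216 ± 1.56 FPKM, Tgm1 with 74.4 ± 4.48 FPKM and Padi1 with 53.8 ± 1.19 FPKM. Tgm2 (26.2 ± 4.87 FPKM), Padi4 (25.2 ± 4.21 FPKM) and Tgm3 (23.8 ± 6.83 FPKM) came next and overlapped one another. Tgm5 (10.5 ± 0.439 FPKM) and Padi2 (1.74 ± 0.0430 FPKM) were lowest. By its mean over all libraries, Tchh ranked at the 99.6th percentile of the tested genes, Padi3 at the 96.2nd, Tgm1 at the 91.1st and Padi1 at the 90.6th, whereas Padi2 ranked at the 1.86th. At 48h the order had changed in its upper part: Padi3 (94.6 ± 28.5 FPKM) overlapped Padi1 (78.3 ± 4.08 FPKM), and both were above Tgm1 (59.6 ± 4.91 FPKM).

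**Figure D1:**
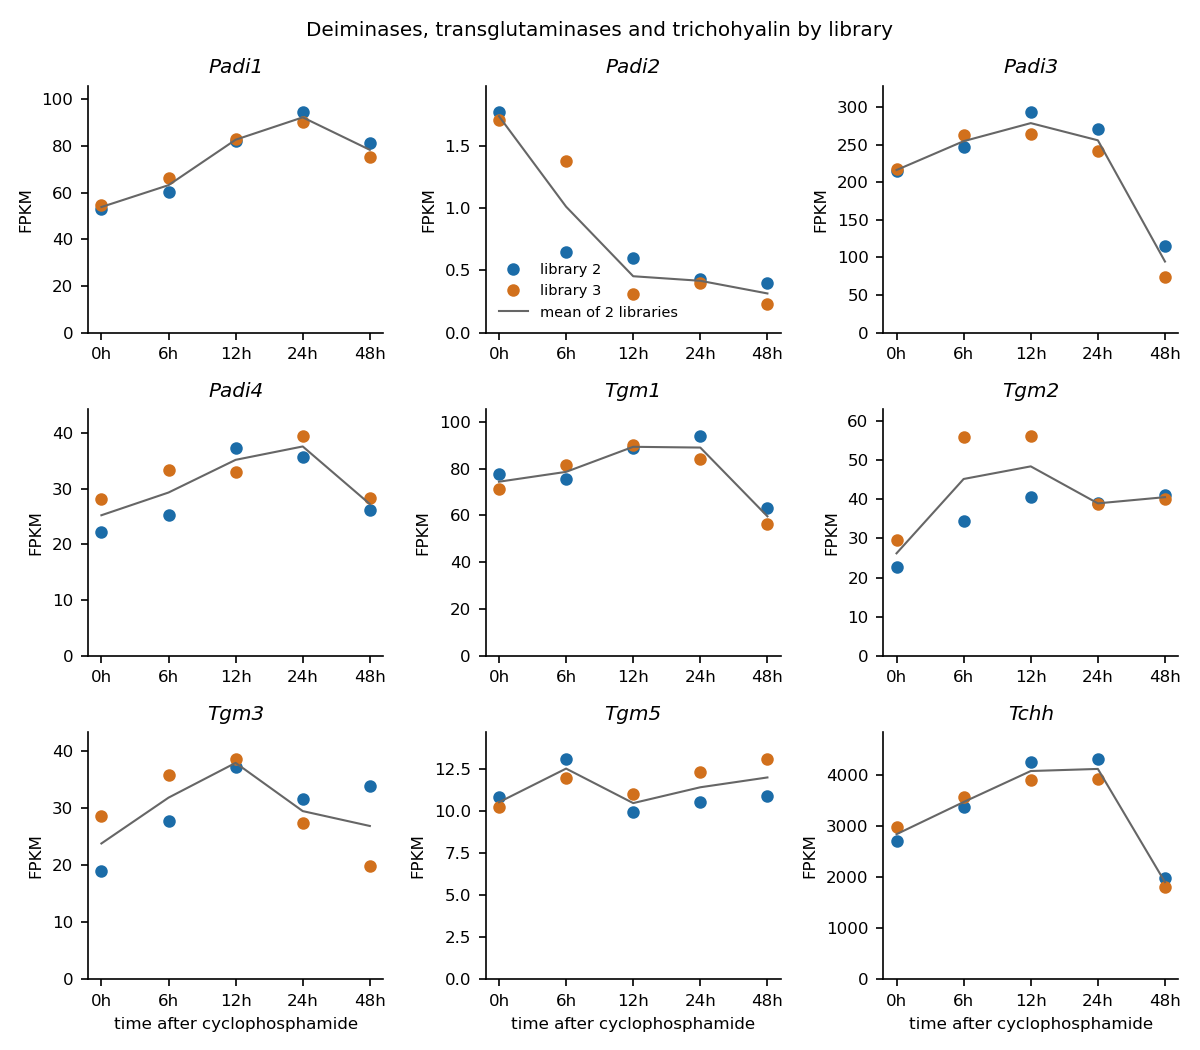
FPKM of each of the 9 genes (vertical axes, 1 per gene, from 0) by hours after cyclophosphamide (horizontal axes); points are the 2 libraries of each time and the line joins their means. Padi3 and Tchh were highest at 12h or 24h and lowest at 48h, Padi1 stayed above its 0h libraries from 6h on, and Padi2 was at or below 1.77 FPKM throughout.

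Courses over time differed among the deiminases. Padi3, the deiminase known for trichohyalin and the hair shaft protein S100A3, fell to less than its level before the drug at 48h. Padi1, known from the epidermis and the hair follicle, was higher at 12h, 24h and 48h than before the drug. Padi2, the most widely expressed deiminase, known from muscle and brain, stood close to the limit of the filter, and no change of Padi4 passed the test.

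Padi3 had 215 and 217 FPKM at 0h, 247 and 263 at 6h, 293 and 264 at 12h, 271 and 241 at 24h, and 115 and 74.4 at 48h. Both 48h libraries were below the libraries of every other time, and the libraries at 6h, 12h and 24h were all above those at 0h. The log2 fold change (difference on the log2(FPKM + 1) scale) of 48h against 0h was -1.22 (SE 0.18; limma, adjusted p = 0.00375), and that of 48h against 24h was -1.46 (SE 0.18; limma, adjusted p = 0.00793). The earlier differences from 0h did not pass the test: they were 0.23 (6h), 0.36 (12h) and 0.24 (24h; limma, adjusted p = 0.618, 0.363 and 0.479). The fall of Padi3 from 0h was past the threshold with each of the 10 libraries left out in turn. Its fall from 24h was not without library 2 of 24h (adjusted p = 0.0521) or when 24h and 48h were fitted alone (adjusted p = 0.0725).

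Padi1 had 53.0 and 54.6 FPKM at 0h, 60.0 and 66.3 at 6h, 82.2 and 83.0 at 12h, 94.3 and 90.1 at 24h, and 81.2 and 75.4 at 48h. The libraries of every later time were above both 0h libraries, and those at 24h were the highest. The log2 fold change against 0h was 0.61 at 12h (SE 0.11; limma, adjusted p = 0.0345), 0.77 at 24h (SE 0.11; adjusted p = 0.00779) and 0.53 at 48h (SE 0.11; adjusted p = 0.0147), while 0.23 at 6h did not pass (adjusted p = 0.423). Between 48h and 24h the difference was -0.23 (95% interval -0.47 to 0.00; adjusted p = 0.269). The summed level of 13 markers of interfollicular epidermis, where Padi1 is also made, was 11506 to 13292 FPKM at 0h, 10735 to 12899 FPKM at 12h, 11050 to 14729 FPKM at 24h and 18248 to 20030 FPKM at 48h. The marker sums at 12h and 24h, when Padi1 was higher, overlapped those at 0h. At 48h 5 of the 13 markers were higher and 1 was lower, against 4.8% and 4.12% of all tested genes. The part of the epidermis in the level of Padi1 was not tested at any time. With single libraries left out, the log2 fold change of Padi1 against 0h kept its sign. It ran from 0.59 to 0.63 at 12h, 0.73 to 0.80 at 24h and 0.48 to 0.58 at 48h. All 3 calls of Padi1 were lost without library 2 of 0h, which leaves 1 library at 0h. Calls over all tested genes fell at these times too without that library. The call at 24h was also lost without library 3 of 24h (adjusted p = 0.0501), that at 48h without library 3 of 0h or either 48h library (adjusted p up to 0.0937), and that at 12h without library 3 of 0h, either 12h or either 48h library (adjusted p up to 0.196).

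Padi2 had 1.77 and 1.71 FPKM at 0h, 0.645 and 1.38 at 6h, 0.596 and 0.309 at 12h, 0.433 and 0.399 at 24h, and 0.396 and 0.233 at 48h. The libraries of each later time were below both 0h libraries, and only those at 0h and 1 library at 6h reached 1 FPKM, so the gene passed the filter through the group where it was high. Its difference from 0h is therefore given as these values, with no test. Padi2 enters no count of calls before the closing section on processing. The counts over all 9 genes given there hold it and are no test of its change. Markers of skeletal muscle, a tissue known to make Padi2, held 4 lower genes of 12 tested at 12h, 5 at 24h and 8 at 48h. Of all tested genes, 0.8%, 1.94% and 4.12% were called lower at those times. None of the 12 was higher at those times, and none was at 0 in every library. Mast cell markers summed to 79.8 to 100.2 FPKM at 48h, against 58.8 to 94.9 FPKM at 0h, and macrophage markers to 401 to 462 FPKM at 48h, against 387 to 546 FPKM at 0h. What part muscle had in the level of Padi2 was not tested.

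Padi4, best known from neutrophils, had 22.3 and 28.2 FPKM at 0h, 25.3 and 33.4 at 6h, 37.4 and 33.0 at 12h, 35.7 and 39.5 at 24h, and 26.1 and 28.4 at 48h. Both libraries at 12h and 24h were above those at 0h, and those at 48h overlapped them. The largest log2 fold change against 0h, 0.56 at 24h, did not pass the test (95% interval 0.20 to 0.92; limma, adjusted p = 0.0904), although it did after median-of-ratios scaling (0.67, adjusted p = 0.0327) and quantile normalization (0.64, adjusted p = 0.0473). Neutrophil markers summed to 75.1 to 115 FPKM at 0h, 149 to 177 at 6h, 138 to 144 at 12h, 260 to 407 at 24h and 392 to 434 at 48h. Most of that sum was S100a8, which keratinocytes also make, and 4 of 13 measured neutrophil markers were under 1 FPKM in every library and Ngp was at 0 in all of them. The sums at 24h and 48h were above those at the other times and overlapped one another. What part neutrophils had in the level of Padi4 was not tested.

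Among the transglutaminases, Tgm1, the membrane-bound keratinocyte enzyme of the cornified envelope that is also made in the inner root sheath, was lower at 48h than at 24h, and no other transglutaminase passed the test in any comparison. Tgm1 had 77.6 and 71.2 FPKM at 0h, 75.7 and 81.5 at 6h, 88.6 and 90.0 at 12h, 94.1 and 83.9 at 24h, and 63.1 and 56.1 at 48h. Both 48h libraries were the lowest of the 10. The log2 fold change was -0.57 for 48h against 24h (SE 0.12; limma, adjusted p = 0.0392) and -0.32 for 48h against 0h, which did not pass (95% interval -0.57 to -0.06; adjusted p = 0.123). The call against 24h was lost with 8 of the 10 libraries left out in turn (all but those at 6h; adjusted p up to 0.241), when 24h and 48h were fitted alone (adjusted p = 0.0926), without the filter on low values (0.0552) and after rescaling to the sum over genes other than hair shaft keratins and keratin-associated proteins (0.0716).

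Tgm3, the transglutaminase known for cross-linking trichohyalin, had 18.9 and 28.6 FPKM at 0h, 27.8 and 35.8 at 6h, 37.2 and 38.6 at 12h, 31.6 and 27.3 at 24h, and 33.9 and 19.7 at 48h. Its libraries at 12h were above those at 0h, and those at 6h, 24h and 48h overlapped them. The log2 fold change against 0h was 0.68 at 12h (95% interval 0.12 to 1.24; limma, adjusted p = 0.226) and 0.15 at 48h (95% interval -0.41 to 0.71; adjusted p = 0.763). The interval at 48h overlapped that of Tchh (-0.89 to -0.27) and lay above that of Padi3 (-1.62 to -0.82). The ratio of Tgm3 to Tchh did not pass between times (exact permutation test, adjusted p = 0.0556). Tgm5, an epidermal transglutaminase, stayed between 9.95 and 13.1 FPKM in all 10 libraries, and its log2 fold changes against 0h ran between -0.01 and 0.23 (limma, adjusted p = 0.486 to 0.985).

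Tgm2, the tissue transglutaminase of endothelium, fibroblasts and many other cells, had 22.7 and 29.6 FPKM at 0h, 34.5 and 55.8 at 6h, 40.5 and 56.2 at 12h, 39.0 and 38.9 at 24h, and 41.0 and 40.1 at 48h. All 8 libraries after the drug were above both 0h libraries. Against 0h the log2 fold change was 0.74 for the 6h libraries, 0.85 for 12h, 0.57 for 24h and 0.62 for 48h. Each of these 4 had a 95% interval above 0 before adjustment over genes, and none passed the test (limma, adjusted p = 0.24, 0.108, 0.19 and 0.118). At 12h Tgm2 passed in 1 of 9 other settings (limma, adjusted p = 0.0425) and in some fits with a single library left out. At 48h it passed when 0h and 48h were fitted alone (limma, adjusted p = 0.0318). With single libraries left out, the log2 fold change at 12h ran from 0.62 to 1.09. Of 12 endothelial markers tested, 2 were higher at 48h (Cldn5 and Pecam1), where 4.8% of all tested genes were called higher. The 12 markers summed to 195 to 223 FPKM at 48h, against 123 to 148 FPKM at 0h. At 6h, 12h and 24h the sums overlapped those at 0h. Fibroblast markers summed to 1299 to 1898 FPKM at 48h, against 1342 to 1550 FPKM at 0h.

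Trichohyalin itself was lower at 48h than at 0h and than at 24h. Tchh had 2696 and 2971 FPKM at 0h, 3358 and 3568 at 6h, 4242 and 3896 at 12h, 4307 and 3913 at 24h, and 1986 and 1806 at 48h. Both 48h libraries were below all others, and all libraries at 6h, 12h and 24h were above those at 0h. The log2 fold change was -0.58 for 48h against 0h (SE 0.14; limma, adjusted p = 0.0313) and -1.12 for 48h against 24h (SE 0.14; adjusted p = 0.00793). At 6h, 12h and 24h it was 0.29, 0.52 and 0.54 against 0h, none of which passed (adjusted p = 0.434, 0.109 and 0.0686). The difference at 24h did pass in 1 of 9 other settings (limma, adjusted p = 0.0492) and in some fits with a single library left out. The call at 48h against 0h was lost with 6 of the 10 libraries left out in turn (all but those at 6h and 24h; adjusted p up to 0.199), without the filter on low values (adjusted p = 0.0805) and after the same rescaling (adjusted p = 0.0617). That against 24h was lost without library 2 of 24h (adjusted p = 0.0542), without library 3 of 48h (adjusted p = 0.082) and when the 2 times were fitted alone (adjusted p = 0.0684).

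**Figure D2:**
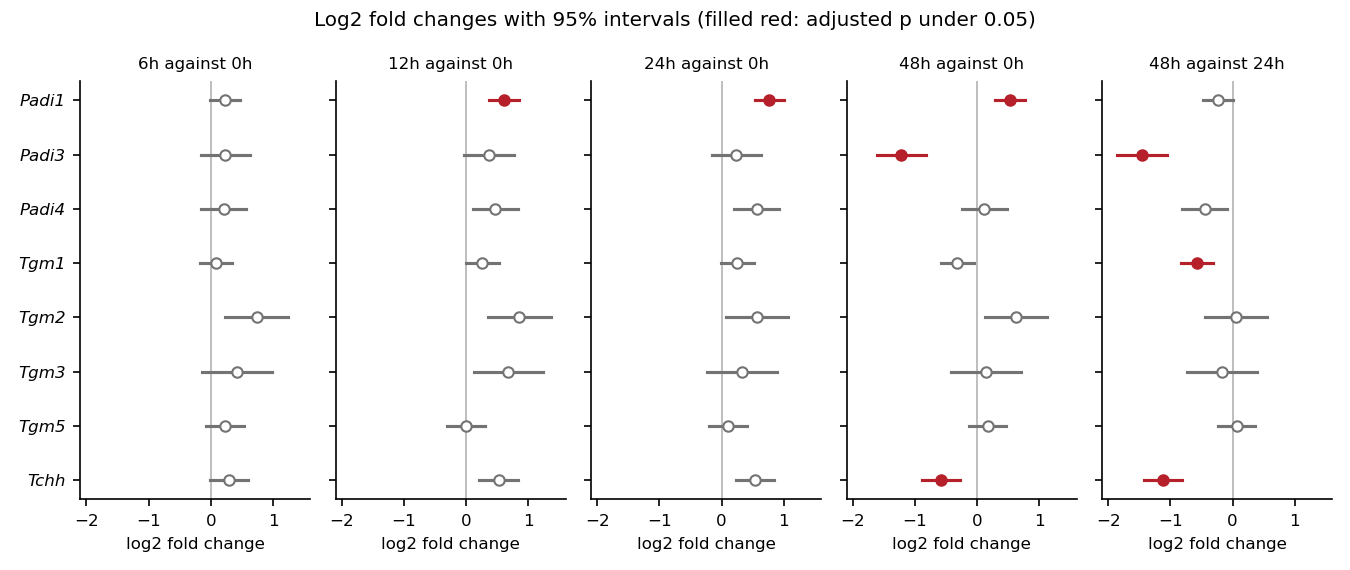
Log2 fold change on the log2(FPKM + 1) scale (horizontal axes) of the 8 genes other than Padi2 (rows), with the 95% interval of the fit, for 6h, 12h, 24h and 48h against 0h and for 48h against 24h (panels); filled points passed the adjusted p threshold of 0.05. At 48h Padi3 lay at -1.22 and Tchh at -0.58, with Padi1 at 0.53.

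Counted over the 8 genes other than Padi2, none passed the test at 6h against 0h (limma; 1 had an unadjusted p under 0.05), where 0.044% of all tested genes did. At 12h 1 gene was higher (Padi1) and none lower, against 0.279% of all tested genes called higher and 0.8% called lower. At 24h 1 was higher (Padi1) and none lower, against 1.37% and 1.94% of all tested genes called higher and lower. Over all genes, that split at 24h was 187 higher and 265 lower, and 304 higher and 161 lower with median-of-ratios scaling. At 48h 1 was higher (Padi1) and 2 lower (Padi3 and Tchh), against 4.8% of all tested genes called higher and 4.12% called lower. Between neighbouring times, none passed for 12h against 6h (1 with an unadjusted p under 0.05) or 24h against 12h (0 with an unadjusted p under 0.05), where 0% and 0.022% of all genes did. For 48h against 24h, 3 genes were lower (Padi3, Tgm1 and Tchh) and none higher, against 1.22% of all tested genes called higher and 1.04% called lower. A moderated F test over the 4 comparisons with 0h called 4 of the 8 genes (Padi1, Padi3, Tgm1 and Tchh), against 7.35% of all genes. The median log2 fold change of the 8 genes was 0.43 at 24h and 0.13 at 48h against 0h, where the medians of all tested genes were -0.10 and -0.01. The comparisons with 0h share the same 2 libraries, and all comparisons share 1 estimate of the spread, to which the 0h libraries contribute.

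The ratio of the FPKM of 2 genes within a library does not depend on how that library was scaled. For 6 such ratios, taken on the log2 scale after adding 1 to each FPKM, which makes the tested value depend slightly on scaling for low genes, the difference between the 5 times was tested with an exact permutation test over all 945 ways of dividing the 10 libraries into 5 pairs (F ratio of the log2 ratios; smallest possible p 0.00106), adjusted over the 6 ratios. Padi1 amounted to 24.6% and 25.1% of the FPKM of Padi3 at 0h, 24.4% and 25.2% at 6h, 28.1% and 31.4% at 12h, 34.8% and 37.4% at 24h, and 70.7% and 101% at 48h. The ratio of these neighbouring deiminase genes differed between times (exact permutation p = 0.00317, adjusted p = 0.00952), and both 48h libraries were above all others. Against Tchh, Padi1 stood at 1.96% and 1.84% at 0h, 1.79% and 1.86% at 6h, 1.94% and 2.13% at 12h, 2.19% and 2.30% at 24h, and 4.09% and 4.17% at 48h (exact permutation p = 0.00529, adjusted p = 0.0106; 0.0698 without library 3 of 24h). Both ratios with Padi1 were thus highest in the 48h libraries.

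Padi3 against its substrate Tchh went the other way and by less: 7.98% and 7.32% at 0h, 7.34% and 7.36% at 6h, 6.91% and 6.79% at 12h, 6.28% and 6.16% at 24h, and 5.78% and 4.12% at 48h. This ratio differed between times (exact permutation p = 0.00317, adjusted p = 0.00952), but not when any single library of 0h, 6h, 12h or 24h was left out (adjusted p = 0.117 to 0.197). Tgm3 against Tchh ran between 0.698% and 1.71%, with both 48h libraries highest (exact permutation p = 0.037, adjusted p = 0.0556; 0.0762 with a pseudocount of 0.1). Tgm1 was 1.86 to 4.09 times the FPKM of Tgm3 with no difference between times past the threshold (adjusted p = 0.522). Tchh as a share of 7 summed inner root sheath keratins (Krt25, Krt26, Krt27, Krt28, Krt71, Krt72 and Krt73) was 12.6% and 14.2% at 0h, 13.1% and 14.7% at 6h, 14.7% and 15.2% at 12h, 14.6% in both libraries at 24h, and 13.4% and 14.5% at 48h. The libraries at 48h overlapped those at 0h, and no difference between times passed (exact permutation p = 0.341, adjusted p = 0.409).

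**Figure D3:**
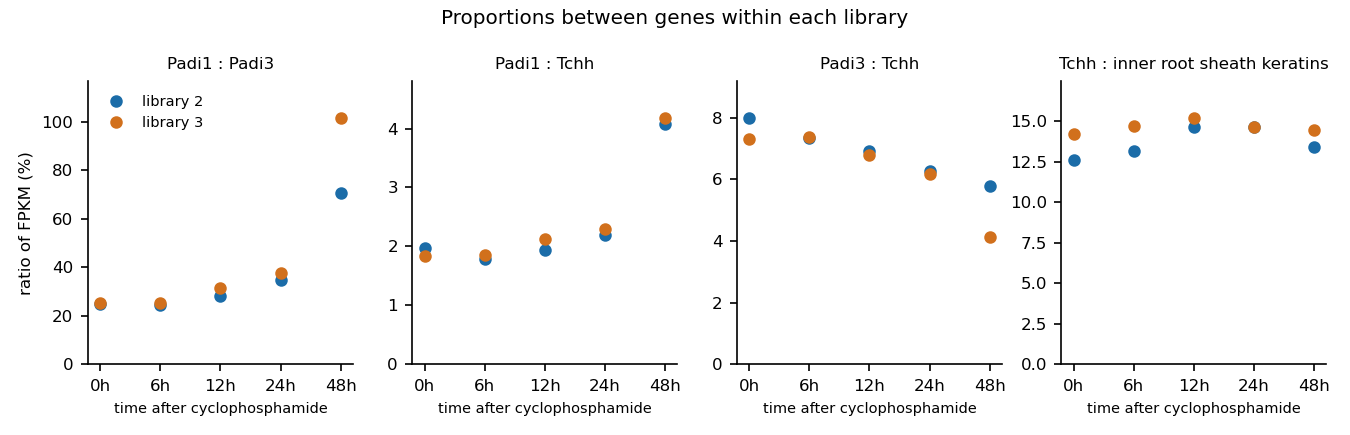
Ratio of 2 transcripts within a library, in percent of FPKM (vertical axes, 1 panel per ratio), by hours after cyclophosphamide (horizontal axes); points are single libraries. Padi1 relative to Padi3 reached 70.7% and 101% at 48h, against 24.6% and 25.1% at 0h, whereas Tchh relative to the summed inner root sheath keratins stayed between 12.6% and 15.2%.

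The rest of the pathway was described from lists chosen with earlier results of these data known. Of other family members, Padi6, the deiminase of the egg, was at or under 0.162 FPKM in every library. Of the 4 tested relatives (Tgm4, Tgm6, Tgm7 and the clotting transglutaminase F13a1) none passed in any of the 7 comparisons by limma; in each comparison at most 1 had an unadjusted p under 0.05. Tgm6, the neighbour of Tgm3 on chromosome 2, was the most abundant of them, with 49.5 and 54.1 FPKM at 0h, 50.3 and 60.5 at 6h, 71.0 and 61.1 at 12h, 74.5 and 65.7 at 24h, and 56.1 and 49.0 at 48h. Its level was above that of Tgm3 in all 10 libraries.

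Among the listed substrates of the enzymes in hair and cornified envelope, no gene passed the test as lower at 48h. The list leaves out Tchh, itself a substrate, which was lower at 48h than at 0h (log2 fold change -0.58, limma, adjusted p = 0.0313). Of 22 tested, 5 were higher at 48h than at 0h and none was lower, where 4.8% of all tested genes were called higher and 4.12% lower (median log2 fold change 0.40, against -0.01 over all tested genes). The small proline-rich protein Sprr4, a cornified envelope precursor, was at 675 ± 86.5 FPKM at 48h, against 132 ± 38.8 FPKM at 0h (log2 fold change 2.37; limma, adjusted p = 0.00283). Krt1 (1.41) and Krt10 (0.90), the keratins of the upper epidermis, Sprr1a (0.98) and the cornified envelope protein Cnfn (0.63) were the others, and Krt1 and Krt10 are also in the list of epidermal markers, of which 5 of 13 were higher at 48h. The count of higher substrates was 1 to 6 with single libraries left out, lowest without library 3 of 0h. Tchhl1, a relative of trichohyalin encoded beside it, was at 604 and 644 FPKM at 48h, against 449 and 511 FPKM at 0h (log2 fold change 0.38; limma, adjusted p = 0.098), and S100a3, a hair protein known as a substrate of Padi3, was at 7675 and 6216 FPKM at 48h, against 9499 and 8158 FPKM at 0h (-0.35; adjusted p = 0.295).

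Among 18 tested proteases and inhibitors listed with the transglutaminase pathway, 2 were higher and 2 lower at 48h than at 0h. Of all tested genes, 4.8% were called higher and 4.12% lower (median of the list 0.27, against -0.01). Cst6, which encodes cystatin M/E, the inhibitor of the cathepsins and legumain that act upstream of Tgm3, was at 719 ± 192 FPKM at 48h, against 252 ± 33.9 FPKM at 0h (log2 fold change 1.49; limma, adjusted p = 0.00977). The protease inhibitor Spink5 was higher too (0.79), and the lysosomal protease Ctsc (-1.01) and the membrane protease St14 (-0.63) were lower. At 24h the cathepsins Ctsl (0.66) and Ctsb (0.60), of which the first is known to activate Tgm3, were higher than at 0h and none of the 18 was lower, against 1.37% and 1.94% of all tested genes. Without library 2 of 0h neither passed (adjusted p = 0.179 for Ctsl and 0.222 for Ctsb), nor without library 3 of 0h, either 24h library or the filter on low values; Ctsb was also lost without either 12h or either 48h library, and over all left-out libraries adjusted p reached 0.268. Without single libraries, the count of higher genes at 48h ran from 0 to 5, with 0 when library 2 of 0h was left out.

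Keratins of the inner root sheath, whose filaments trichohyalin binds, were listed together with those of the companion layer. The list held 5 lower and 1 higher gene among 13 at 48h against 0h. Of all tested genes, 4.12% were called lower and 4.8% higher there (median of the list -0.18, against -0.01). Against 24h, 6 were lower and none higher, where 1.04% of all tested genes were called lower and 1.22% higher (median -0.60, against 0.09). Krt74 fell most (-2.48 against 0h), followed by Krt73 (-1.36) and Krt25 (-1.004), and the single higher gene was Krt6a (1.33), a keratin also made in injured epidermis. At 24h against 0h 2 were higher (Krt26 and Krt6a) and none lower, against 1.37% and 1.94% of all tested genes (median 0.43, against -0.10); that count of higher genes ran from 0 to 3 with single libraries left out. Krt26 was lost without any 1 of the libraries other than those at 6h (adjusted p up to 0.207), and Krt6a without either 0h library or library 3 of 24h (up to 0.13). Some of the 5 genes lower at 48h than at 0h did not pass with single libraries left out, fewest passing without library 3 of 48h. Over all alternatives the median of the list at 48h against 0h ran from -0.36 to -0.08. The fit of 24h and 48h alone called none of the 6 genes lower against 24h. That fit called 2 of 13169 genes in all, where the fit of all times called 308 of 13625.

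Of 15 transcription factors of the inner root sheath and hair cortex, 9 were lower and none higher at 48h than at 0h, where 4.12% of all tested genes were called lower and 4.8% higher (median -0.57, against -0.01). The matrix factor Msx1 fell to 4.40 ± 2.24 FPKM at 48h, against 20.4 ± 3.04 FPKM at 0h (log2 fold change -2.04; limma, adjusted p = 0.0165), and Lef1, which carries the Wnt signal to hair genes, to 5.98 ± 0.696 FPKM at 48h, against 22.9 ± 0.900 FPKM at 0h (-1.78; adjusted p = 0.000323). Sox21 (-1.61) and Msx2 (-1.12) followed. Lef1 (-1.03) and Sox21 (-1.24) were also lower at 24h than at 0h, and both calls were lost without library 2 of 0h (adjusted p = 0.106 and 0.0628), that of Lef1 also without library 3 of 0h (0.058) or library 3 of 24h (0.0935). Gata3, a factor of the inner root sheath, did not pass at 48h (-0.57; adjusted p = 0.0647). The count of lower factors ran from 0 to 3 at 24h and from 3 to 9 at 48h with single libraries left out, lowest at 48h without library 3 of 0h.

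**Figure D4:**
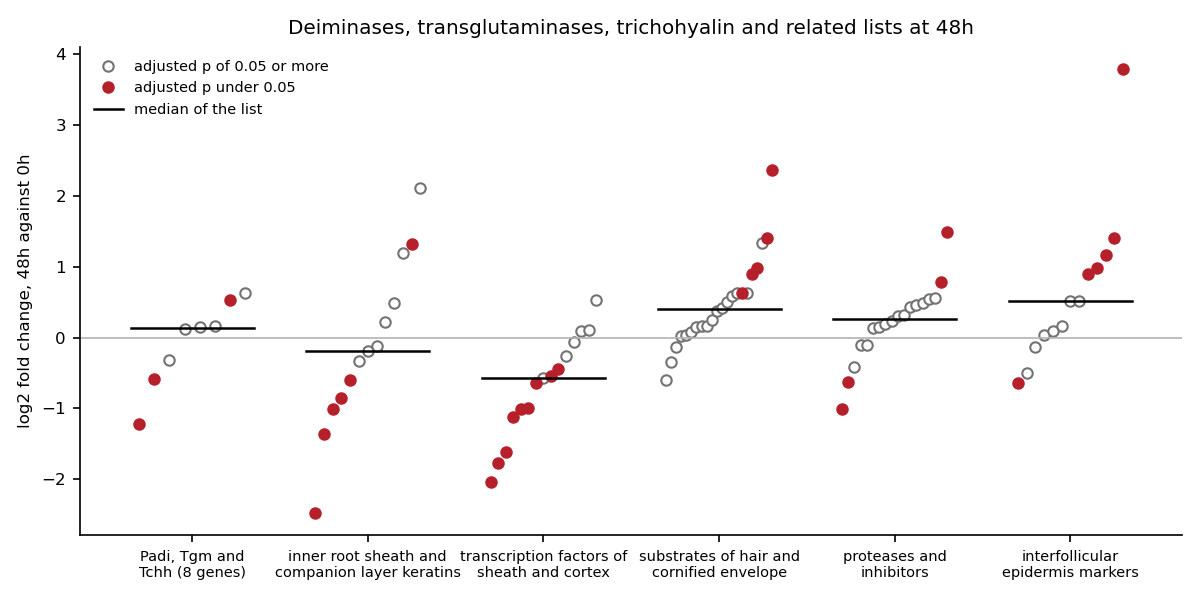
Log2 fold change of 48h against 0h (vertical axis, log2(FPKM + 1) scale) for the 8 genes other than Padi2 and for the genes of 4 pathway lists and of the epidermal markers (columns); each point is a gene, lines are medians, and filled points passed the adjusted p threshold of 0.05. Transcription factors past the threshold lay below 0. Listed substrates past it lay above 0, in a list that leaves out Tchh, which is shown among the 8 genes.

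By the shape of their course over the 10 libraries, the 9 genes fell into unlike patterns. The Pearson correlation of log2(FPKM + 1) over the 10 libraries, given as a description since the libraries share times and scaling, was 0.938 between Padi3 and Tchh, 0.959 between Tgm1 and Tchh, 0.925 between Padi3 and Tgm1 and -0.01 between Padi1 and Padi3. Among tested genes with a mean of at least 5 FPKM, the 5 most like Padi3 were Bean1 (0.992), Bpgm (0.992), the inner root sheath keratin Krt25 (0.984), Slc39a8 (0.983) and Arid3a (0.982). Those most like Tchh were Krt71 (0.977), Ero1l (0.975), Zdhhc13 (0.974), Serpinb11 (0.973) and Krt25 (0.966). Tgm1 was most like Minpp1 (0.975), Metrnl (0.973) and Tchh itself (0.959), followed by Dusp2 and Map3k6. Padi1 was most like Otop2 (0.961), Fam46b (0.960), Lrrc15 (0.954), Hspb7 (0.953) and Plk3 (0.945). The leading match was Pgm1 for Padi4 (0.928), Scaf4 for Padi2 (0.950), Piezo1 for Tgm2 (0.949), Jmy for Tgm3 (0.966) and Lgals8 for Tgm5 (0.874).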

How the data were processed

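RNA was sequenced from full back skin of 10 libraries, 2 at each of 5 times. The authors deposited 1 table of FPKM values per gene; TopHat2 2.1.1, Cufflinks 2.2.1 and mm10 are named in the submitters' processing notes. The table's columns number the libraries of each time 2 and 3 whereas the sample titles use other numbers, so each column was mapped to its time and is called by the table's number. Of 24358 rows, 27 whose symbol had turned into a date were dropped, and 103 of the remaining rows name more than 1 gene.

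Log2(FPKM + 1) was fitted with limma 3.58.1 (R 4.3.3) with 1 mean per time and an intensity trend, over all 10 libraries, which leaves 5 residual degrees of freedom; the filter (1 FPKM or more in 2 or more libraries) left 13625 genes, tested two-sided, with Benjamini-Hochberg adjustment over all of them and a threshold of 0.05. This scale understates the change of low genes. FPKM values carry no read counts, so no counting interval is given. The fit and the permutation test were tested on simulated data. The 9 genes were named whatever their values, and from each list up to 4 genes with the largest change past the threshold (Cnfn, Gata3, S100a3, Tchhl1 and Tgm6 were added after their values were seen). Members, lists, markers and tests were chosen with earlier results of these data known. Alternatives covered pseudocounts, filters, scalings, a replicate block, fits of single pairs of times and single libraries left out; for the lists they were added after seeing the data.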

Additional observations from a re-analysis of the deposited data

How the results depend on the processing

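Counts given below over all 9 genes also hold Padi2, which was 1 of those past the threshold at 24h, at 48h and in the F test. They are larger there than the counts over 8 genes. Since Padi2 passed the filter through its 0h libraries, they are no test of its change. Of the 56 fold changes of the 8 genes other than Padi2 (8 genes in 7 comparisons), 8 passed the test. All 8 kept their sign with every library left out; 1 of them (Padi3, 48h against 0h) stayed past the threshold in all left-out fits, and 3 stayed past it under every other alternative run. Of the 48 that did not pass, 4 passed under some alternative. With single libraries left out, the number of all 9 genes, Padi2 included, past the threshold ran from 0 to 2 at 12h, 0 to 3 at 24h and 1 to 4 at 48h against 0h, from 0 to 3 for 48h against 24h, and from 2 to 6 in the F test. Calls over all tested genes moved too, with single libraries left out and under other settings, and are in brackets for the latter. At 12h the count of 1 (147) came to 0 without the filter on low values (4) and to 2 with the replicate block (322). At 24h the count of 2 (452) came to 1 with pseudocounts of 0.1 or 0.5 (414 and 432) and without the filter (179). It was also 1 with a mean of at least 5 FPKM, which removes Padi2 (365), and in a fit of the compared times alone (320). Median-of-ratios scaling (465) and quantile normalization (460) gave 3 at 24h. At 48h the count of 4 (1215) came to 3 without the filter (879), with a mean of at least 5 FPKM (994) and after rescaling without hair genes (1124). A fit of those times alone gave 5 (1425). For 48h against 24h the count of 3 (308) came to 2 without the filter (112) and after rescaling without hair genes (254). A fit of those times alone, where fewer libraries are fitted, gave 0 (2). In the F test the count of 5 came to 4 with pseudocounts of 0.1 or 0.5 and with genes kept from 5 FPKM up on average. It came to 3 there without the filter and after rescaling without hair genes. Adjusted p with single libraries left out ran from 0.00952 to 0.0381 for the ratio of Padi1 to Padi3, from 0.0106 to 0.0698 for Padi1 to Tchh, and from 0.00952 to 0.197 for Padi3 to Tchh.

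Whether the library numbers pair the samples was not settled. Deviations from the time means of libraries with the same number correlated at -0.10 to 0.22 over the 10 pairs of times. A replicate block in the fit raised the calls over all tested genes in every comparison. Against 0h they were 99 with it and 6 without it at 6h, and 1409 and 1215 at 48h. With the replicate block, which permutes within each number, adjusted p was 0.05 for Padi1 to Padi3, 0.0667 for Padi1 to Tchh and 0.05 for Padi3 to Tchh, from fewer arrangements.

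Signs changed for small differences that had not passed. With single libraries left out, the log2 fold change of 48h against 0h ran from -0.0499 to 0.279 for Padi4, from -0.228 to 0.524 for Tgm3 and from -0.0763 to 0.114 for Tgm6. Tgm5 at 12h against 0h ran from -0.0724 to 0.0573, and came to 0.0709 with median-of-ratios scaling, 0.062 with quantile normalization and 0.0913 after rescaling without hair genes. For 24h against 12h, Padi2 ran from -0.173 to 0.113, Tchh from -0.055 to 0.0832 (-0.0172 after rescaling without hair genes) and Tgm1 from -0.0891 to 0.0743 (0.0134 with median-of-ratios scaling). Tgm2 at 12h against 6h ran from -0.222 to 0.459. For 48h against 24h, Tgm3 ran from -0.55 to 0.202 and Tgm5 from -0.0582 to 0.188, and with median-of-ratios scaling and quantile normalization Tgm5 came to -0.0334 and -0.041 and Tgm2 to -0.0481 and -0.0325. The causes were not tested. Median-of-ratios scaling moved the median of all genes for 12h against 6h to -0.0007, against -0.12 as deposited; no call of the 9 genes rests on that comparison.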
